A study of Mus musculus with 20 samples.

Results

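The genes described here were 4 genes of major histocompatibility complex (MHC) class II antigen presentation (Cd74, H2-Aa, H2-Ab1 and H2-Eb1) and 6 genes known from macrophages at the brain's borders (Mrc1, Cd163, Pf4, F13a1, Ms4a7 and Lyz2). They were chosen by name with earlier results of these data known, so their counts beside shares of all genes are a description. They are 10 of the 49671 genes counted, and all 10 had enough counts to be among the 18427 genes tested. Their levels were read in 20 RNA-seq libraries, each from 1 frozen hippocampus of an adult male wild-type mouse aged 10 to 12 weeks. The control group (n = 5) received isotype antibody into the abdomen, and so did the melanoma group (n = 5), which also carried bilateral intradermal tumours of the mouse melanoma line D4M-3A.UV2 from 500000 cells per injection. The ICI group (n = 5; ICI stands for immune checkpoint inhibition) received anti-CTLA-4 at 1 mg per dose 3 times a week and anti-PD-1 at 200 µg per dose 2 times a week. The melanoma plus ICI group (n = 5) had the tumours, 1 week of engraftment and then the same antibodies for 3 weeks. All brains were taken 72 h after the last injection, and the tumour is a transplanted line growing in the skin, so no group carried tumour cells placed in the brain.

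MHC class II molecules are pairs of an alpha and a beta chain that display peptides, taken up from outside the cell, to CD4 T cells. H2-Aa encodes the alpha chain of the I-A molecule, H2-Ab1 its beta chain, H2-Eb1 the beta chain of the I-E molecule, and Cd74 the invariant chain that guides class II through the cell until a peptide is loaded. Border-associated macrophages live in the meninges, along blood vessels and in the choroid plexus, and part of them carries class II, while resting microglia of the brain tissue carry little. Bulk tissue cannot tell fewer cells of a type from less RNA per cell, and a hippocampus taken with more or less attached choroid plexus or meninges would carry more or less of these macrophages.

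The promoters were read for letters that class II genes are known to share, an X box and a Y box bound by factors that recruit the transactivator Ciita, and for the purine-rich letters that the macrophage factor PU.1 is known to bind. The sequences are from RefSeq on mouse build GRCm38.p6, in windows of 300 bases from 250 before to 50 after each start, for 8 of the 10 genes. Cd74 and H2-Ab1 were not scanned here. The 2 class II stretches below are printed 5′ to 3′ on the strand of the gene because they show the paired letters, with the X box core and then the Y box in capitals.
H2-Aa (chr17:34287847-34287924, minus strand): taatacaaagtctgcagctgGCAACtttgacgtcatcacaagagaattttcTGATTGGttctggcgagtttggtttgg
H2-Eb1 (chr17:34305756-34305832, plus strand): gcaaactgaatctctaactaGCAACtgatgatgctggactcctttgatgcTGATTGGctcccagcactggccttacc
The Y box began 31 bases after the X box core in H2-Aa and 30 bases after it in H2-Eb1. The pair was searched on both strands as GNAAC followed by TGATTGG starting 25 to 40 bases later, letters and distance that were set after the windows had been read. It occurred in 140 of 32851 promoter windows (0.426%), and also in those of H2-DMb1, H2-Oa, H2-Ob and H2-Eb2, but not in those of H2-DMa and H2-DMb2, the other class II genes scanned. GNAAC alone was in 84.85% of windows and TGATTGG alone in 7.82%, so only the pair was uncommon.

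Of the 6 border macrophage genes, 4 had a window with AGGAAGT on either strand, a string held by 9.35% of all windows and also chosen after reading. Those 4 were Mrc1, Pf4, Lyz2 and F13a1 (in the second of 2 windows for F13a1), and neither Cd163 nor Ms4a7 had it. In the 3 stretches below, shown to set the macrophage promoters beside the class II ones, the capitals mark the string as its reverse complement.
Mrc1 (chr2:14229183-14229229, plus strand): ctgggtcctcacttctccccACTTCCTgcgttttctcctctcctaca
Lyz2 (chr10:117282346-117282392, minus strand): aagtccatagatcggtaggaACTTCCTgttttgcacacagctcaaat
Pf4 (chr5:90772388-90772434, plus strand): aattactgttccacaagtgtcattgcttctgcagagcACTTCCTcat
A match of letters is a description of the window and was not tested as a binding site. In the deposited coordinates the 3 class II chain genes lie close together on chromosome 17, H2-Ab1 at 34263209 to 34269418 on the plus strand, H2-Aa at 34282744 to 34287827 on the minus strand and H2-Eb1 at 34305877 to 34316199 on the plus strand. The border macrophage genes lie on 6 different chromosomes, Mrc1 on 2, Pf4 on 5, Cd163 on 6, Lyz2 on 10, F13a1 on 13 and Ms4a7 on 19. All 10 are annotated as protein coding, and their values count reads over exons.

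Each library held 21990624 to 25735149 counts, and no pair of libraries in a group agreed within sampling noise. On the first principal component, which held 23.4% of the variance, 2 libraries stood far from the other 18. They were replicate 4 of the control group and replicate 1 of the melanoma plus ICI group, and values without them are given for several counts and calls that moved. The libraries differed in markers of tissue content, and the part of dissection in this was not tested. Ttr, which encodes transthyretin, a product of choroid plexus epithelium, ran from 2.14 to 5980 CPM, the count scaled by the effective library size to 1e+06. Genes of hippocampal neurons (8 listed, summed) ran from 318 to 1443 CPM, so RNA of these genes was present in every library. Microglia genes (12 listed, summed) stayed between 314 and 395 CPM.

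All 10 genes were low. Lyz2, which encodes lysozyme of myeloid cells, had 63 to 233 counts per library, Cd74 21 to 276, H2-Aa 6 to 144, H2-Ab1 13 to 116, and H2-Eb1 14 to 144. Mrc1 had 21 to 153 counts, Cd163 12 to 99, F13a1 9 to 70, Pf4 3 to 17 and Ms4a7 0 to 20. Counting error is therefore a large part of the values of Pf4 and Ms4a7. Per length, as CPM per kb of exon averaged over the 20 libraries, Lyz2 was highest at 4.504, followed by Cd74 at 3.14, H2-Eb1 at 2.11, H2-Ab1 at 1.22 and H2-Aa at 1.08. The others followed at 0.569 (Pf4), 0.504 (Mrc1), 0.431 (F13a1), 0.353 (Cd163) and 0.0731 (Ms4a7) CPM per kb. The top of the order held within libraries, with Lyz2 above Cd74 in 19 of 20, Cd74 above H2-Eb1 in 20 and H2-Eb1 above H2-Ab1 in 19. H2-Ab1 over H2-Aa differed by less than the spread between libraries (difference 0.142 ± 0.260 CPM per kb, SD, n = 20), and so did the neighbouring pairs H2-Aa over Pf4 (0.509 ± 0.711), Pf4 over Mrc1 (0.0649 ± 0.314), Mrc1 over F13a1 (0.0736 ± 0.157) and F13a1 over Cd163 (0.0781 ± 0.197).

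The class II genes were highest on average in the melanoma plus ICI group and lowest in the ICI group, with wide overlap. Cd74 was 4.62, 5.23, 3.33, 1.98 and 6.89 CPM in control replicates 1 to 5, and 1.67, 1.59, 1.00, 3.95 and 5.07 CPM with ICI. It was 1.72, 2.69, 4.98, 5.34 and 6.68 CPM with melanoma, and 2.96, 7.41, 5.73, 10.9 and 4.89 CPM with melanoma plus ICI. ICI replicates 1 to 3 were the lowest of all libraries, ICI replicates 4 and 5 lay within the range of the other groups, and the highest was melanoma plus ICI replicate 4. The group means of Cd74 were 4.41 ± 1.87 CPM in control, 2.66 ± 1.76 with ICI, 4.28 ± 2.03 with melanoma and 6.38 ± 2.99 with both (SD, n = 5 each).

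H2-Aa, the I-A alpha chain, spread most of the class II genes, 20.5-fold from lowest to highest library. It was 1.84, 2.59, 1.46, 0.277 and 3.90 CPM in control and 0.686, 0.750, 0.714, 1.69 and 1.87 CPM with ICI. It was 0.589, 0.640, 2.12, 2.25 and 2.91 CPM with melanoma and 0.862, 4.32, 2.36, 5.69 and 2.89 CPM with melanoma plus ICI. The lowest library was a control, replicate 4, and the groups overlapped throughout, with means of 2.01 ± 1.35, 1.14 ± 0.585, 1.70 ± 1.04 and 3.22 ± 1.85 CPM (SD, n = 5) in the same order. H2-Ab1, the I-A beta chain, ran from 0.876 to 3.28 CPM in control (median 2.55) and from 0.574 to 2.09 CPM with ICI (median 1.00). It ran from 0.631 to 3.21 CPM with melanoma (median 1.04) and from 1.03 to 4.58 CPM with melanoma plus ICI (median 2.55). The medians of H2-Ab1 in the control and melanoma plus ICI groups thus lay within 0.01 CPM of each other, and the latter group reached higher.

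H2-Eb1, the I-E beta chain, was 3.13, 4.08, 2.32, 1.48 and 3.73 CPM in control and 1.37, 0.662, 0.667, 2.14 and 2.49 CPM with ICI. It was 0.967, 0.981, 1.30, 2.12 and 3.60 CPM with melanoma and 1.52, 4.97, 2.94, 5.69 and 3.69 CPM with melanoma plus ICI. Of the 5 control values, 3 lay above every ICI value, and the same ICI replicates 4 and 5 that were high for Cd74 were the highest of their group here. The gene of the I-E alpha chain, the partner of the beta chain from H2-Eb1, is listed as the pseudogene H2-Ea-ps and had 0 counts in all 20 libraries.

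Mrc1, the mannose receptor that marks border macrophages, was 4.98, 2.30, 2.92, 2.26 and 4.06 CPM in control and 2.45, 0.971, 1.00, 3.17 and 4.0 CPM with ICI. It was 1.85, 1.96, 2.77, 2.67 and 6.64 CPM with melanoma and 3.57, 5.13, 4.41, 4.66 and 2.49 CPM with melanoma plus ICI. Its 2 lowest libraries were ICI replicates 2 and 3, and its highest was melanoma replicate 5, far above the other 4 of that group. Group means were 3.30 ± 1.19, 2.32 ± 1.33, 3.18 ± 1.98 and 4.05 ± 1.04 CPM (SD, n = 5) in control, ICI, melanoma and melanoma plus ICI.

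Cd163, the scavenger receptor for haemoglobin bound to haptoglobin, had another order of groups, with the highest mean in melanoma. It was 2.59, 1.57, 1.28, 0.554 and 1.35 CPM in control and 1.37, 1.37, 0.762, 1.52 and 1.60 CPM with ICI. It was 1.98, 1.79, 4.29, 1.78 and 4.30 CPM with melanoma and 1.44, 1.75, 3.75, 2.13 and 1.33 CPM with melanoma plus ICI. Melanoma replicates 3 and 5 and melanoma plus ICI replicate 3 stood above 3 CPM, and every other library lay below. F13a1, the A chain of coagulation factor XIII, was 2.74, 1.02, 1.14, 0.554 and 1.85 CPM in control and 1.42, 0.750, 0.429, 1.40 and 1.33 CPM with ICI. It was 1.64, 2.13, 1.52, 2.5 and 2.91 CPM with melanoma and 2.55, 2.73, 1.55, 2.21 and 1.47 CPM with melanoma plus ICI. The highest ICI value of F13a1 was 1.42 CPM, and the lowest value was 1.47 CPM with melanoma plus ICI and 1.52 CPM with melanoma. In melanoma plus ICI against ICI the groups did not overlap for 1.45% of all genes, and that share was not computed for ICI against melanoma. Control overlapped with every group.

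Lyz2 had the narrowest spread of the 10, 3.40-fold over all libraries. It was 6.74, 6.85, 5.79, 6.18 and 6.32 CPM in control and 2.70, 2.91, 3.0, 5.07 and 4.89 CPM with ICI. It was 4.37, 4.65, 4.85, 5.64 and 7.03 CPM with melanoma and 7.31, 8.03, 6.50, 9.20 and 6.01 CPM with melanoma plus ICI. Every ICI value lay below every control value and below every melanoma plus ICI value, and the melanoma group overlapped with all others. Groups did not overlap for 0.885% of all genes in ICI against control and for 1.45% in melanoma plus ICI against ICI. Its means were 6.38 ± 0.431, 3.71 ± 1.2, 5.31 ± 1.07 and 7.41 ± 1.26 CPM (SD, n = 5). Within the ICI group, replicates 4 and 5 were again the highest.

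Pf4, a chemokine of border macrophages and also of platelets, averaged 0.433 ± 0.172 CPM in control, 0.252 ± 0.137 with ICI, 0.437 ± 0.250 with melanoma and 0.519 ± 0.137 with both (SD, n = 5). Ms4a7, a membrane protein of border macrophages, averaged 0.309 ± 0.143, 0.323 ± 0.244, 0.214 ± 0.135 and 0.456 ± 0.258 CPM in the same order. Ms4a7 had 0 counts in melanoma replicate 2, which allows a level of up to 0.128 CPM (3 counts, counting error only). The ranges of these 2 genes overlapped between all 4 groups. Of the 6 platelet genes listed, Ppbp had 9 counts and Gp6 3 counts over all 20 libraries, while Gp1bb averaged 7.24 and Itga2b 2.93 CPM, and the list summed to 8.0 to 15.6 CPM.

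**Figure D1:**
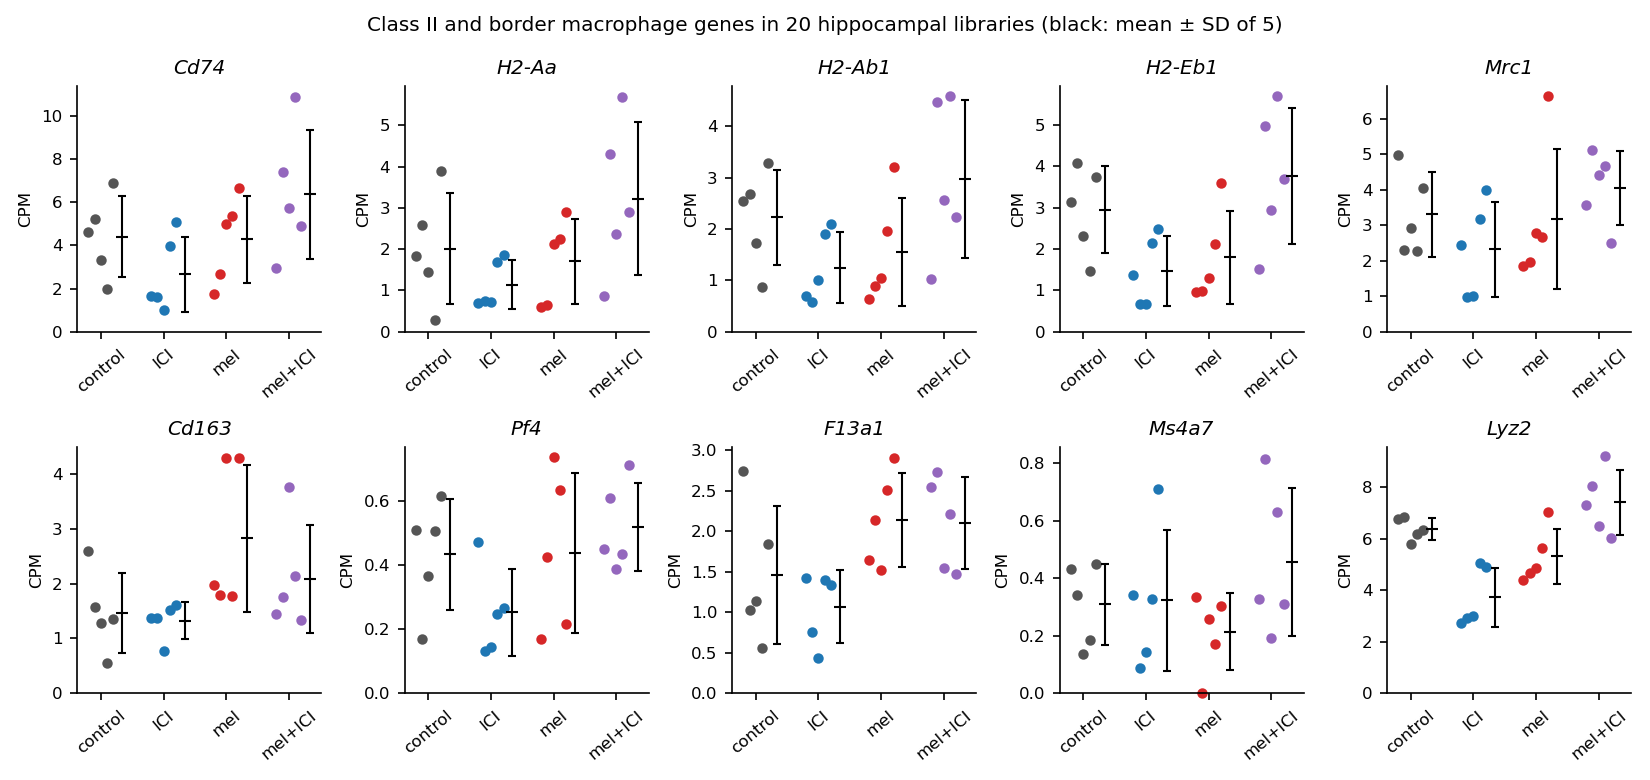
Level of each of the 10 genes (CPM, linear axis from 0) in every library by group, with coloured points for single libraries and black marks for the mean ± SD (n = 5). Lyz2 with ICI lies between 2.70 and 5.07 CPM, below all control values, whereas the class II panels overlap between all 4 groups.

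In the plot of levels by library each class II gene has its highest mean with melanoma plus ICI and its lowest with ICI. The 4 class II genes summed to 4.61 to 17.8 CPM in control, 3.38 to 11.5 with ICI, 3.91 to 16.4 with melanoma and 6.36 to 26.8 with melanoma plus ICI. The 6 border macrophage genes summed to 10.2 to 18.0, 5.48 to 12.8, 10.3 to 21.4 and 12.3 to 19.3 CPM. The border gene sums of the ICI and melanoma plus ICI groups overlapped by little, and the class II sums of all 4 groups overlapped widely.

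Melanoma plus ICI against ICI gave the largest median differences of the 5 pairwise comparisons, between mice that received the same antibodies with and without a tumour. All 10 genes were higher on average with the tumour, against 55.0% of all tested genes, and the median log2 difference was 1.31 for class II and 0.89 for the border genes, against 0.025 over all genes. The log2 differences of class II were 1.26 (SE 0.45) for Cd74, 1.49 (SE 0.57) for H2-Aa, 1.25 (SE 0.48) for H2-Ab1 and 1.35 (SE 0.44) for H2-Eb1. Those of the border genes were 0.99 (SE 0.18) for Lyz2, 1.01 (SE 0.43) for Pf4, 0.97 (SE 0.37) for F13a1, 0.80 (SE 0.40) for Mrc1, 0.65 (SE 0.38) for Cd163 and 0.49 (SE 0.55) for Ms4a7. None of the 10 passed an adjusted p of 0.05 in edgeR's quasi-likelihood test, and neither did any other gene (0.00%). At an unadjusted p under 0.05, 7 of the 10 were higher, all but Mrc1, Cd163 and Ms4a7, against 4.12% of all genes. Lyz2 ranked first of all genes, with an adjusted p of 0.318 by edgeR. With DESeq2 it was 1 of 9 genes that passed, at an adjusted p of 0.00198, and over the 30 alternatives tried its adjusted p ran from 0.00198 to 0.801. With limma voom and quality weights no gene passed. Groups did not overlap for 2 of the 10 genes, F13a1 and Lyz2, against 1.45% of all genes.

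Markers of other tissue differed between the same groups. In melanoma plus ICI against ICI, the 14 choroid plexus genes were all higher (median log2 difference 1.39, none at an unadjusted p under 0.05) and summed to 31.8 to 1004 against 25.2 to 304 CPM. The 11 meningeal fibroblast genes were all higher (median 1.07, 8 of 11 at an unadjusted p under 0.05) and summed to 171 to 498 against 67.8 to 279 CPM. The 8 hippocampal neuron genes were all lower (median -0.71, 5 of 8 at that level) and summed to 318 to 701 against 607 to 1443 CPM. Red blood cell genes, 5 of 5 tested, were higher (median 0.92), and so were all 8 endothelium and pericyte genes (median 0.24). No gene of the choroid plexus, meningeal fibroblast or hippocampal neuron lists was at 0 in any library. Microglia genes split evenly, 6 of 12 higher with a median of 0.013.

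The class II difference between these 2 groups was smaller once tissue content stood in the model. With log2 CPM of Ttr as a covariate, the class II median was 1.04 and the border median 0.84. With a meningeal fibroblast score, the mean log2 CPM of those 11 genes, the medians were 0.38 and 0.26, and 1 gene, Lyz2, was left at an unadjusted p under 0.05 instead of 7. With both covariates, a model added after seeing the data, the medians were 0.12 and 0.26. Cd74 was then 0.19, H2-Ab1 0.05, H2-Eb1 0.27, Mrc1 0.03 and H2-Aa -5.93e-05 on the log2 scale, while Lyz2 was 0.67 (SE 0.16, adjusted p 0.338 by edgeR). The score was itself higher in the melanoma plus ICI group, so the part of tumour and of meningeal content in the difference cannot be told apart by this model. Without control replicate 4 and melanoma plus ICI replicate 1, the medians without covariates were 1.51 and 0.87.

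**Figure D2:**
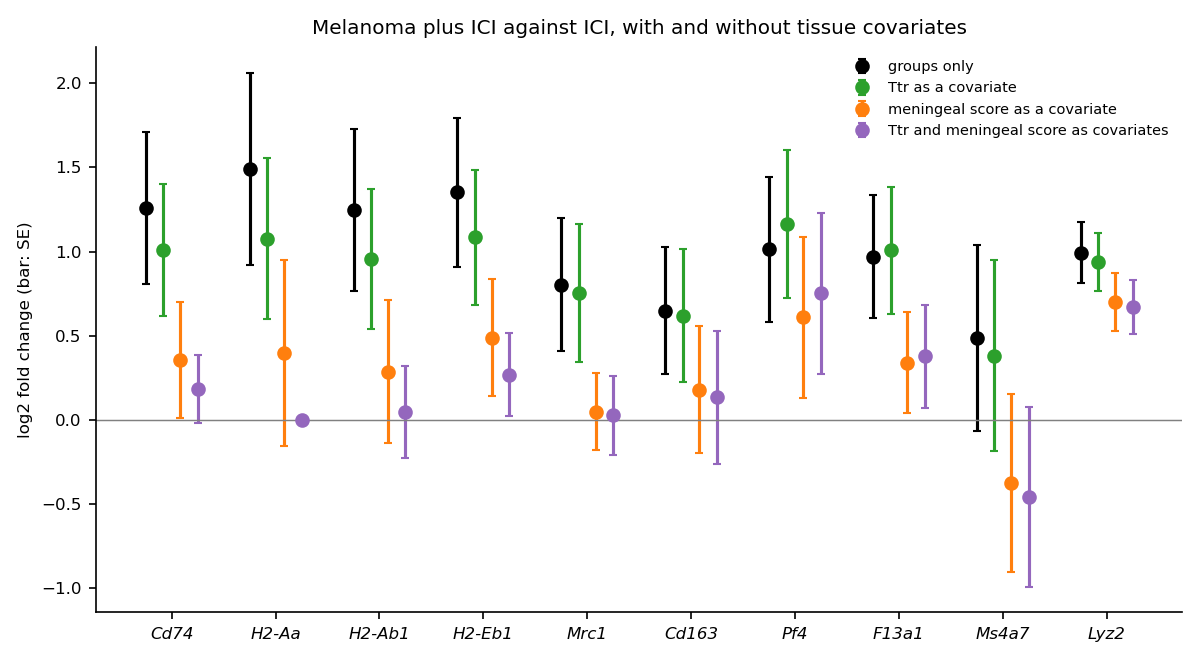
Log2 fold change of each gene in melanoma plus ICI against ICI (y axis, with bars for ± 1 SE, genes along the x axis), from models with groups only, with log2 CPM of Ttr, with the meningeal fibroblast score, or with both as covariates. The class II estimates move from 1.25 to 1.49 with groups only to between -5.93e-05 and 0.27 with both, and that of Lyz2 from 0.99 to 0.67; the H2-Aa estimate with both covariates is drawn without a bar because its error could not be derived.

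ICI against control, mice without tumours, went the other way. Of the 10 genes, 1 was higher and 9 were lower, against 48.0% of all genes higher, with medians of -0.82 for class II and -0.48 for the border genes against -0.0098 over all genes. Cd74 differed by -0.73 (SE 0.45), H2-Aa by -0.82 (SE 0.58), H2-Ab1 by -0.83 (SE 0.49), H2-Eb1 by -1.0 (SE 0.44) and Lyz2 by -0.78 (SE 0.18) on the log2 scale. None of the 10 passed by edgeR (adjusted p 0.766 for each of these 5) against 0.00% of all genes, nor with DESeq2 or limma voom. H2-Eb1 and Lyz2 were lower at an unadjusted p under 0.05, against 3.15% of genes, and Lyz2 was the member whose groups did not overlap, against 0.885% of genes. That count of 2 was 1 without control replicate 1 or 5 or ICI replicate 2 or 3, 4 without ICI replicate 5, and 4 without the 2 libraries that lay apart, when the class II median was -1.07 and the border median -0.64. The border median was -0.21 without control replicate 1 and -0.29 without ICI replicate 3. Choroid plexus genes had a median of -1.43 and meningeal fibroblast genes of -0.55 in this comparison, each list lower in all of its genes. Red blood cell genes (5 of 5, median -1.09) and endothelium and pericyte genes (8 of 8, median -0.27) were lower too, while all 8 hippocampal neuron genes were higher (median 0.18, none at an unadjusted p under 0.05). ICI replicates 4 and 5, the highest for class II, Mrc1 and Lyz2, also had the highest Ttr and meningeal score of the group. With the meningeal score as a covariate the medians were -0.39 for class II and -0.070 for the border genes, and with both covariates -0.28 and -0.077.

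The tumour alone was compared in mice given isotype antibody. In melanoma against control, Cd163 was higher by 0.93 (SE 0.37, adjusted p 0.877 by edgeR), the 1 gene of the 10 at an unadjusted p under 0.05, against 2.70% of genes higher. That count was 0 without control replicate 4 or melanoma replicate 3 and 2 without control replicate 1 or melanoma replicate 5. Class II had a median of -0.39 and the border genes of -0.025 in this comparison, none of the 10 passed (0.00% of genes), and none did with DESeq2 or limma voom. All 14 choroid plexus genes were lower in the same comparison (median -1.57), as were 8 of 11 meningeal fibroblast genes (median -0.095), and 5 of 12 microglia genes were lower at an unadjusted p under 0.05. With both tissue covariates the class II median was -0.14, and 6 of the 10 genes were higher instead of 3. With 1 library left out the class II median ran from -0.76 (without melanoma replicate 5) to -0.11 (without control replicate 5), with further moves to -0.64 without control replicate 4, -0.19 without melanoma replicate 1 and -0.22 without melanoma replicate 2. The border median then ran from -0.19 to 0.14 and had no steady sign.

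In melanoma plus ICI against melanoma, 8 of 10 were higher, against 53.5% of genes, with medians of 0.93 for class II and 0.30 for the border genes. H2-Eb1 was higher by 1.07 (SE 0.43) and Lyz2 by 0.48 (SE 0.18), the 2 at an unadjusted p under 0.05 against 2.63% of genes, each with an adjusted p of 0.825 by edgeR and none passing (0.00%). The border median was 0.12 without melanoma replicate 1. The count was 1 without melanoma replicate 1, 2 or 3 or melanoma plus ICI replicate 2 or 4, and 4 without melanoma replicate 5, without melanoma plus ICI replicate 1, or without both libraries that lay apart. Limma voom with quality weights called 25 genes in this comparison and DESeq2 0, none of them a member. All 14 choroid plexus genes (median 1.52) and all 11 meningeal fibroblast genes (median 0.66) were higher here too, and all 8 hippocampal neuron genes were lower (median -0.43, 1 of 8 at an unadjusted p under 0.05). With the meningeal score as a covariate 5 of 10 members were higher (medians 0.34 for class II and -0.053 for the border genes) and none was left at an unadjusted p under 0.05. With both covariates the medians were -0.00094 and -0.0034.

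Melanoma plus ICI against control put all 10 genes higher on average, against 50.7% of genes. The medians were 0.47 for class II and 0.40 for the border genes, and Lyz2 differed by 0.22 (SE 0.18, adjusted p 1.00 by edgeR). None passed (0.00%), and 0 of 10 had an unadjusted p under 0.05 (2.38% of genes), with edgeR, DESeq2 and limma voom alike. Without control replicate 1, 2 of the 10 reached that level. The class II median was 0.22 without melanoma plus ICI replicate 4 and 0.28 without control replicate 4, and the border median 0.20 without melanoma plus ICI replicate 2. With Ttr as a covariate all 10 were still higher (medians 0.25 and 0.40). The class II median was -0.067 with the meningeal score (6 of 10 higher) and -0.17 with both (5 of 10 higher), while the border median stayed above 0 (0.068 and 0.094). All 11 meningeal fibroblast genes were higher in this comparison (median 0.38), as were 7 of the 14 choroid plexus genes, and all 8 hippocampal neuron genes were lower (median -0.64, 3 of 8 at an unadjusted p under 0.05).

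The difference between the antibody effect with and without a tumour was tested as an interaction. It was 1.74 (SE 0.80) for H2-Aa, 1.78 (SE 0.68) for H2-Ab1, 2.07 (SE 0.62) for H2-Eb1 and 1.26 (SE 0.26) for Lyz2 on the log2 scale, and above 0 for 9 of the 10, against 52.8% of genes. These 4 had an unadjusted p under 0.05, against 5.99% of genes with a positive interaction, and none of the 10 passed by edgeR (0.00% of genes, adjusted p 0.253 for Lyz2). Lyz2 passed with DESeq2 at an adjusted p of 0.00538 among 47 genes and with limma voom and quality weights at 0.0479 among 19 genes. Its adjusted p ran from 0.00538 to 0.527 over the 29 alternatives. Without the 2 libraries that lay apart the class II median was 2.24. The choroid plexus list had a median interaction of 3.06 and the meningeal list of 1.163, both with all genes above 0, and the neuron list of -0.59 with all 8 below 0. With both tissue covariates the class II median was 0.22 instead of 1.76 and 2 members were left at an unadjusted p under 0.05.

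Ttr varied widely within each group, with means of 2509 ± 2574 CPM in control, 916 ± 887 with ICI, 933 ± 1413 with melanoma and 2436 ± 2246 with melanoma plus ICI (SD, n = 5). It was 15.6, 5632, 2298, 19.5 and 4580 CPM in control and 2.14, 617, 266, 1663 and 2031 CPM with ICI. It was 378, 14.2, 71.5, 3399 and 803 CPM with melanoma and 43.9, 1218, 2921, 5980 and 2019 CPM with melanoma plus ICI. Each group thus held libraries with low and with high Ttr, a 2788-fold range in all. The Pearson r of log2 Ttr with the mean of the 14 other choroid plexus genes was 0.97, and with the meningeal score 0.17, so the 2 tissue measures ranked the libraries differently.

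Over all 20 libraries, correlations with Ttr were higher for the class II genes than for the border genes, a difference that was not tested itself. Over 20 libraries the Pearson r of log2 CPM with Ttr was 0.56 for Cd74, 0.68 for H2-Aa, 0.63 for H2-Ab1 and 0.53 for H2-Eb1 (Spearman rho 0.69, 0.71, 0.66 and 0.64). The two-sided permutation p of r was 0.0102, 0.00111, 0.0035 and 0.0159, and 0.185, 0.0496, 0.112 and 0.219 after Benjamini-Hochberg adjustment over all 18426 genes. With rho, Cd74 (adjusted permutation p 0.0411) and H2-Aa (0.0264) passed. By r, H2-Aa was the 1 of 10 genes that passed, against 2.24% of all genes. Without the 2 libraries farthest from the median Ttr its r was 0.63 (adjusted permutation p 0.0454), and that of Cd74 was 0.48, of H2-Ab1 0.53 and of H2-Eb1 0.48. Mrc1 had an r of 0.20, Cd163 0.13, Pf4 -0.17, F13a1 0.046, Ms4a7 0.29 and Lyz2 0.40, with none passing. The libraries fell into 14 above and 6 below a gap in Ttr of 1.89 on the log2 scale. Within the 14, r was 0.79 for Cd74, 0.76 for H2-Aa, 0.69 for H2-Ab1, 0.76 for H2-Eb1 and 0.71 for Lyz2, and within the 6 it was 0.70, 0.37, 0.27, -0.0019 and 0.73. The other border genes had r of 0.52 (Mrc1), 0.19 (Cd163), 0.57 (Pf4), 0.40 (F13a1) and 0.33 (Ms4a7) within the 14, so that class II and border genes lay closer there. Among the 14, Cd74 passed (adjusted permutation p 0.0397) and H2-Aa did not (0.0696), so which gene passed depended on the libraries used. The r of H2-Aa, H2-Ab1 and H2-Eb1 was thus higher among the libraries of high Ttr, also untested.

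As a slope beside the groups, the change in log2 CPM per doubling of Ttr was 0.12 (SE 0.042) for Cd74, 0.18 (SE 0.053) for H2-Aa, 0.14 (SE 0.046) for H2-Ab1 and 0.11 (SE 0.042) for H2-Eb1. None of the 10 genes passed by edgeR (adjusted p 0.0951, 0.0649, 0.0857 and 0.126 for class II), against 2.95% of all genes, while all 4 class II genes and no border gene had an unadjusted p under 0.05 (26.0% of genes). Without control replicate 1 H2-Aa and H2-Ab1 passed (adjusted p 0.0348 and 0.0342 by edgeR), and without ICI replicate 1 H2-Aa did (0.0377). With limma voom H2-Aa passed (0.0389). The adjusted p of H2-Aa ran from 0.00197 to 0.423 over the 28 alternatives, the highest without the 2 libraries that lay apart. Without those 2, 1 of the 10 had an unadjusted p under 0.05.

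**Figure D3:**
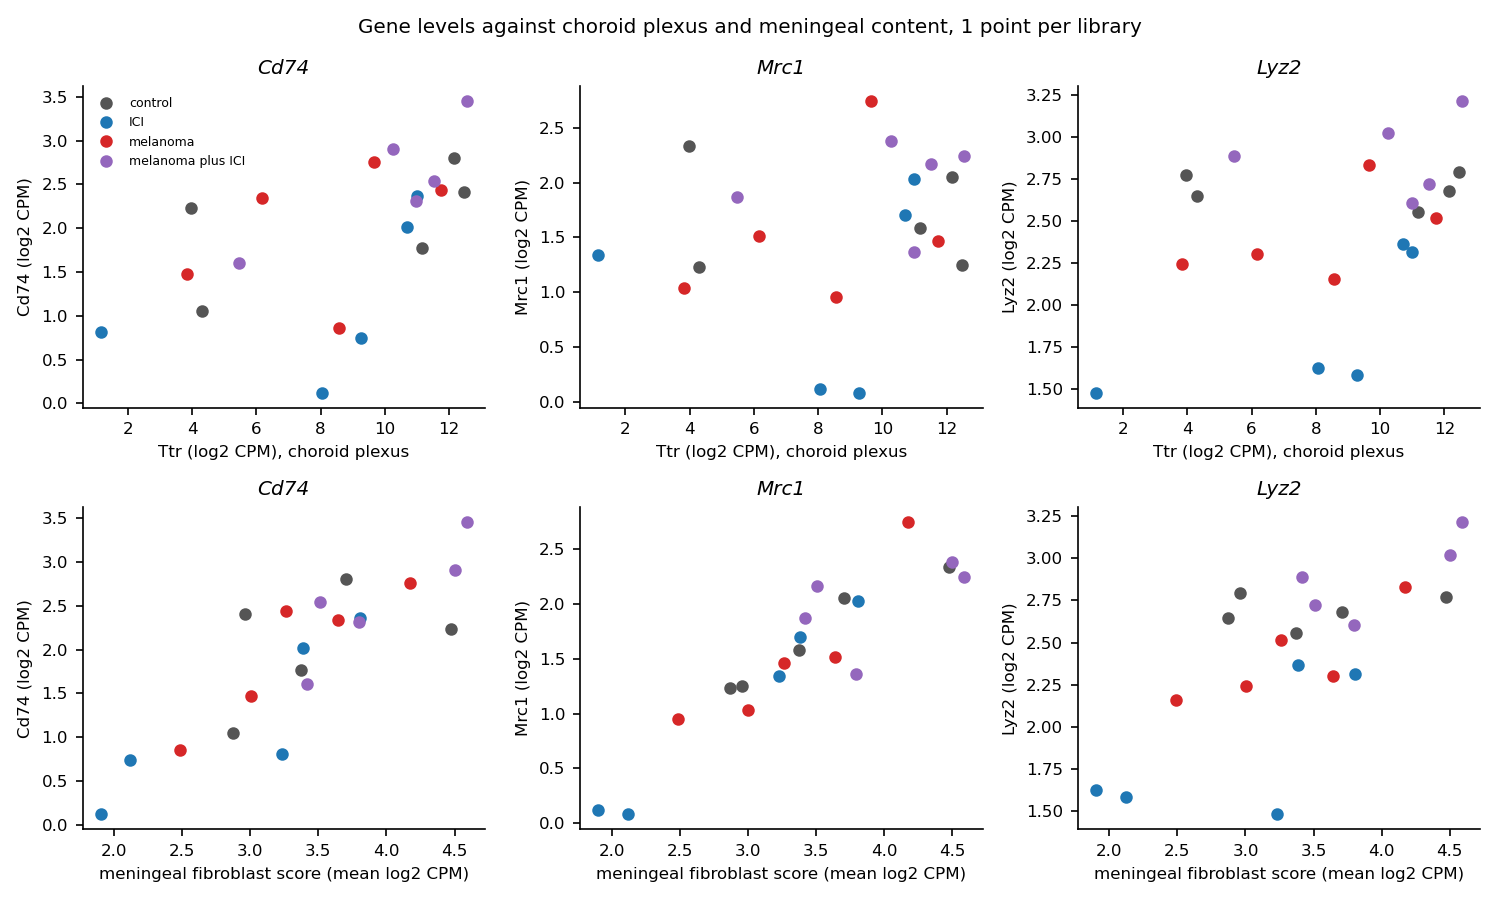
Levels of Cd74, Mrc1 and Lyz2 (log2 CPM, y axis) against log2 CPM of Ttr and against the meningeal fibroblast score (x axis, mean log2 CPM of 11 genes), 1 point per library coloured by group. Mrc1 rises with the meningeal score (Pearson r 0.92) and has an r of 0.20 with Ttr, and Cd74 rises with both (0.85 and 0.56).

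The meningeal fibroblast score rose with more of the genes, in a test added after seeing the data. Beside groups and Ttr, the change in log2 CPM per unit of the score was 0.88 (SE 0.10) for Cd74, 0.98 (SE 0.16) for H2-Aa, 0.86 (SE 0.13) for H2-Ab1 and 0.85 (SE 0.12) for H2-Eb1. The adjusted p by edgeR was 0.000142, 0.00393, 0.00181 and 0.00115. Among the border genes Mrc1 rose by 0.88 (SE 0.12, adjusted p 0.000786 by edgeR) and F13a1 by 0.68 (SE 0.15, adjusted p 0.0347 by edgeR) per unit. Thus 6 of the 10 genes rose with the score, against 1.00% of all genes. Lyz2 had a slope of 0.27 (SE 0.079, adjusted p 0.0944 by edgeR), Cd163 one of 0.50 (SE 0.19), Pf4 one of 0.43 (SE 0.25) and Ms4a7 one of 0.89 (SE 0.28), and these 4 did not pass. The 4 class II genes and Mrc1 passed in all 20 fits that left out 1 library. F13a1 passed in 12 of the 20 and did not without control replicate 1 or 2, ICI replicate 1, 3 or 5, melanoma replicate 1 or 5, or melanoma plus ICI replicate 2 (adjusted p up to 0.246). Cd163 passed without melanoma plus ICI replicate 3 (0.0360), Ms4a7 without melanoma replicate 1 (0.0437), and Lyz2 without the 2 libraries that lay apart (0.0183). Over all 24 alternatives the adjusted p ran from 0.0360 to 0.646 for Cd163 and from 0.0149 to 0.290 for Lyz2.

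With the score in the model, the slopes of class II on Ttr kept their size and their errors shrank. They were 0.12 for Cd74, 0.19 for H2-Aa, 0.14 for H2-Ab1 and 0.11 for H2-Eb1, with adjusted p of 0.00160, 0.00197, 0.00454 and 0.0145 by edgeR. All 4 class II genes and 0 of the 6 border genes then passed with a positive slope, against 2.67% of all genes, the border slopes lying between -0.059 and 0.042. The difference between the 2 kinds of gene in that slope was not tested itself.

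**Figure D4:**
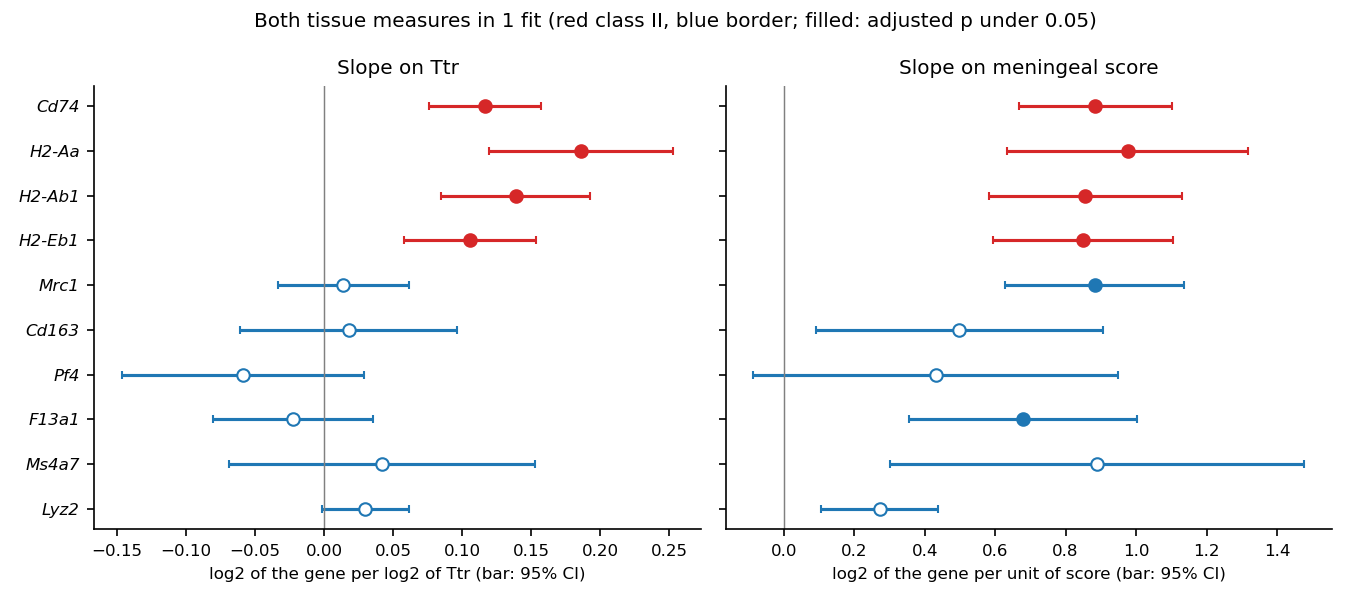
Change in log2 CPM of each gene per doubling of Ttr and per unit of the meningeal fibroblast score (x axis), both from 1 edgeR model with groups, with bars for the 95% confidence interval, red for class II and blue for border macrophage genes. Filled points have an adjusted p under 0.05, and they are the 4 class II genes for Ttr (0.11 to 0.19) and class II with Mrc1 and F13a1 for the score (0.68 to 0.98).

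Without a model, the Pearson r with the meningeal score over 20 libraries was 0.85 for Cd74, 0.74 for H2-Aa, 0.78 for H2-Ab1, 0.83 for H2-Eb1, 0.92 for Mrc1, 0.74 for F13a1 and 0.74 for Lyz2 (Spearman rho 0.78, 0.76, 0.79, 0.77, 0.91, 0.65 and 0.67). By r, these 7 of 10 passed after adjustment over all 18416 genes (permutation, adjusted p 0.00376 to 0.0236), against 2.07% of all genes. The unadjusted permutation p of r was 1e-05 for Cd74, H2-Eb1 and Mrc1, the smallest that the permutations can give, and at most 0.00024 for the other 4. With rho, F13a1 (adjusted permutation p 0.0595) and Lyz2 (0.0537) did not pass, and the rest of the 7 did. Without the 2 libraries farthest from the median score 3 of the 10 passed, Cd74, H2-Ab1 and Mrc1. H2-Aa and H2-Eb1 then had r of 0.74 and 0.73 (adjusted permutation p 0.0601 and 0.0665) and F13a1 and Lyz2 of 0.57 and 0.56 (adjusted permutation p 0.245 and 0.260). With group means subtracted and all 20 libraries kept, 5 of the 10 passed. H2-Aa (r 0.67, adjusted permutation p 0.0545) and Lyz2 (r 0.66, adjusted permutation p 0.0625) were then not among them. Cd74, H2-Ab1 and Mrc1 passed in all 3 versions. Ms4a7, Pf4 and Cd163 had r of 0.64, 0.58 and 0.51 and did not pass.

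The 10 genes were positively correlated with each other across libraries. All 45 pairs had a positive Pearson r of log2 CPM over the 20 libraries, with a median of 0.56 (0.12 to 0.94). Both genes of a pair share the depth, tissue content and group of each library. With group means removed, Cd163 with Pf4 (-0.052) and Pf4 with Lyz2 (-0.077) were negative, and without the 2 libraries farthest from the median of Pf4, Pf4 with Ms4a7 was (-0.043). The share of positive pairs among other genes was not computed, so the count is only a description. The 6 class II pairs were tightest, from 0.85 to 0.94. The 24 pairs of a class II with a border gene had a median of 0.56 (0.28 to 0.82) and the 15 border pairs one of 0.45 (0.12 to 0.77). After group, Ttr and meningeal score were taken out of each gene, the medians were 0.34 within class II, 0.034 between the kinds and 0.015 within the border genes. The class II pairs alone stayed positive throughout, from 0.19 to 0.53.

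**Figure D5:**
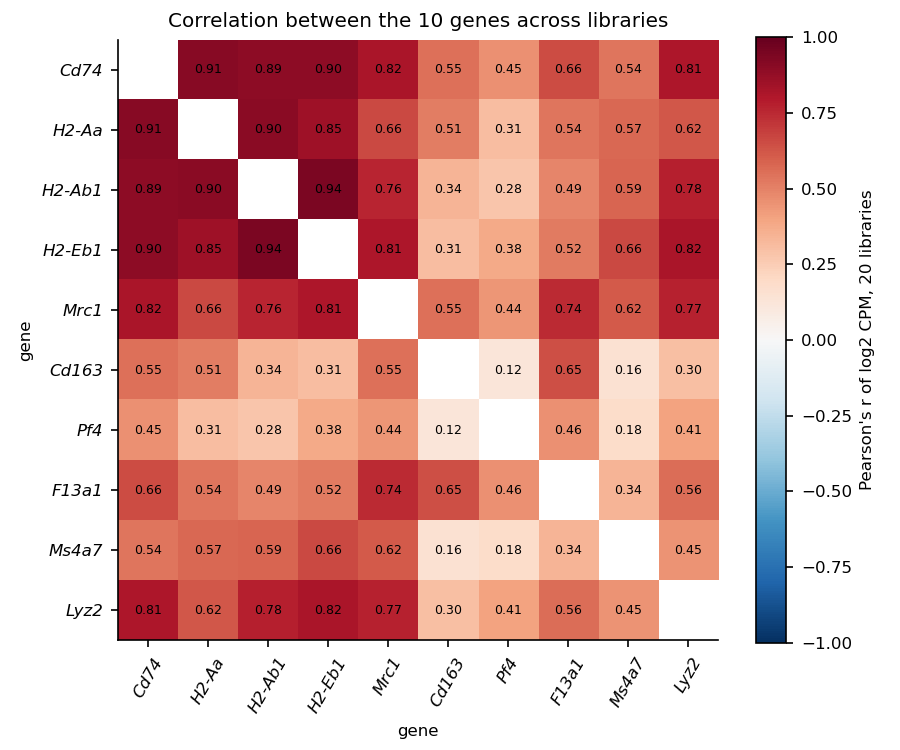
Pearson r of log2 CPM over 20 libraries for each of the 45 pairs of genes, class II genes first and then the border macrophage genes, with colour from low to high r. The class II block holds 0.85 to 0.94, and the pairs outside it lie between 0.12 and 0.82.

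Likeness of pattern was measured by the Pearson r of log2 CPM over the 20 libraries, among tested genes with a mean of at least 1 CPM, and the 3 most alike genes were taken for each of the 10. For Cd74 they were Bmp4 (0.94), Bmp7 (0.93) and Bmp6 (0.92), which encode bone morphogenetic proteins. For H2-Aa they were Bmp6 (0.92), Dab2 (0.91) and Pcolce (0.91), for H2-Ab1 H2-Eb1 (0.94), Serping1 (0.93) and Cyp1b1 (0.92), and for H2-Eb1 H2-Ab1 (0.94), Bmp6 (0.90) and Slc13a4 (0.90). For Mrc1 they were the collagen genes Col1a2 (0.93) and Col3a1 (0.93) and Itih2 (0.92), and for F13a1 Crispld2 (0.85), Fmod (0.83) and Ptgds (0.82). Lyz2 was most like Ctsh (0.88), Vstm4 (0.88) and Cavin1 (0.87), where Ctsh encodes the lysosomal protease cathepsin H. The highest r of Cd163 was 0.87 with A230103J11Rik, that of Pf4 0.85 with Trim8 and that of Ms4a7 0.81 with Bmx.

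The other genes of the class II pathway passed no test. Of 16 listed, 13 were tested and 0 passed in any of the 6 comparisons or either slope by edgeR, with 9 of 13 higher in melanoma plus ICI against ICI (median 0.13, 3 at an unadjusted p under 0.05). Ciita, the class II transactivator, ranged from 0.415 to 4.73 CPM (mean 3.04). Its group means were 2.55 ± 1.23 CPM in control, 3.57 ± 0.452 with ICI, 3.41 ± 0.743 with melanoma and 2.63 ± 1.23 with melanoma plus ICI (SD, n = 5). The log2 difference of Ciita in melanoma plus ICI against ICI was -0.44 (SE 0.39, adjusted p 0.712 by edgeR). The proteases that trim antigen and invariant chain were far more abundant, Lgmn at 104.1, Ctsl at 69.2 and Ctss at 41.1 CPM on average. Of 14 listed genes of the response to interferon gamma, a known inducer of class II, 11 were tested and 0 passed by edgeR in any comparison (median 0.071 in melanoma plus ICI against ICI, 6 of 11 higher, 0 at an unadjusted p under 0.05). H2-Eb2, a further beta chain gene, had 3 counts in all.

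Of 18 other border macrophage genes, 13 were tested. All 13 were higher in melanoma plus ICI against ICI (median 0.38, 3 at an unadjusted p under 0.05) and 0 passed there by edgeR. Folr2, a folate receptor, rose by 0.24 (adjusted p 0.0200 by edgeR) and Dab2, an endocytic adaptor, by 0.13 (adjusted p 0.0283 by edgeR) per doubling of Ttr. With the meningeal score, Cd209f rose by 1.15, Mgl2 by 1.46 and Dab2 by 0.52 per unit, with adjusted p of 0.00855, 0.0477 and 0.0135 by edgeR, and Cd209a, listed with dendritic cells, by 1.51 (adjusted p 0.0300 by edgeR). None of the 12 microglia genes passed on either slope by edgeR. Among markers of other cells that carry class II, the B cell list summed to 4.98 to 27.1 CPM, of which Ighm made up 10.99 CPM on average, while Ms4a1 had 1 count over all 20 libraries. The dendritic cell list, of which 5 of 10 genes were tested, summed to 21.1 to 32.6 CPM. Flt3 was at 12.8 and Zbtb46 at 9.92 CPM on average, and Xcr1 had 10 counts in all. Whether these sums come from such cells, and the part of such cells in the class II levels, was not tested. The T cell genes summed to 1.19 to 4.07 CPM and Cd3d had 5 counts in all.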

How the data were processed

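The authors deposited whole-number counts of reads per gene, 1 file per hippocampus and 49671 genes in each, with a layout of gene positions and exon lengths per the file headers. Per the submitters' processing notes, STAR 2.5.2b and DESeq2 1.16.1 were used, with no roles stated. The counting program, strand setting, handling of multiply mapped reads, annotation and genome build are not given in the sources used here. Gene symbols came from GENCODE M21, which held 49326 of the gene IDs, and 45091 of them had the same start and end there, so deposited coordinates are printed without a build. Every row carried a gene ID, and 345 IDs had no symbol.

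From the deposited counts, groups were taken from the labels and CPM and log2 CPM (prior count 2) were computed with edgeR 4.0.16 and TMM scaling factors of 0.9555 to 1.043. Genes were kept by filterByExpr (minimum count 10, minimum total 15), which left 18427. All 20 libraries entered 1 quasi-likelihood fit with robust dispersion (16 residual degrees of freedom, R 4.3.3), tested two-sided for 6 contrasts with Benjamini-Hochberg adjustment over all genes and a threshold of 0.05. Slopes were fitted in the same way on log2 CPM of Ttr beside the groups, leaving Ttr out of the genes tested, and on the meningeal score, leaving its 11 genes out. Correlations had 100000 permutations of the libraries. Their p-values were adjusted over all tested genes, and pairs of the 10 genes are given without a p, where an adjustment over the 10 genes and the 45 pairs had been planned. DESeq2 1.42.0 and limma 3.58.1 (voom) were alternatives. Further alternatives were RLE size factors, no filter on low counts, only the groups compared, tissue covariates, a replicate block and leaving out each library in turn. The models were tested on simulated data.

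The 10 genes and the marker lists were chosen with earlier results of these data known. Beside the 10 genes and Ttr, the rule named the 3 genes most like each by r, list genes past the threshold, and otherwise up to 3 of a list by mean CPM. Class II genes named for their promoter letters, H2-Ea-ps, H2-Eb2, Ciita and immune cell genes with few counts were named after their values were seen. The meningeal slope, the model with both tissue covariates, the fits without the 2 libraries that lay apart and the correlations within the libraries of high Ttr were added after seeing the data. Depth limits the values of the rarest genes. Standard errors and confidence intervals come from the fitted models and carry the spread between libraries, and the floor of a count of 0 covers counting error only.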

Additional observations from a re-analysis of the deposited data

Results flagged for a closer look

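Of 44 groups of 5 libraries (the 10 genes and Ttr in 4 groups), 3 had 1 library far from the other 4, by a gap to its nearest neighbour of more than 0.71 of the whole range, a rule that chance meets in about 1 in 20 groups. Mrc1 was 6.64 CPM in melanoma replicate 5, against 2.77 CPM in the next library of the group (gap 0.807 of the range). Cd163 was lowest in ICI replicate 3 at 0.762 CPM, against 1.37 CPM in the next (0.724 of the range). Ttr was 3399 CPM in melanoma replicate 4, against 803 CPM in the next (0.767 of the range).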

How the results depend on the processing

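In the 6 comparisons no member passed an adjusted p of 0.05 by edgeR under RLE size factors, without the filter on low counts, with only the 2 groups compared, with either or both tissue covariates or with any 1 library left out. DESeq2 called 8 genes in melanoma against control and 1 in ICI against control. It called 47 genes for the interaction and 9 for melanoma plus ICI against ICI, 1 of them a member, Lyz2, each time. Limma voom with quality weights called 25 genes for melanoma plus ICI against melanoma, 19 in the interaction and 1 for melanoma against control, with Lyz2 as 1 member in the interaction. With only the 2 groups compared, 3 genes passed in melanoma against control, and without the 2 libraries that lay apart, 1 gene in the interaction. Why the tools differ was not tested.

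The numbers of members at an unadjusted p under 0.05 moved more. In ICI against control the number was 4 with limma voom or without the 2 libraries that lay apart (2 by edgeR). For melanoma against control it was 3 with the meningeal score, 3 with both covariates and 2 with limma voom (1 by edgeR). In melanoma plus ICI against melanoma it was 0 with the meningeal score or both covariates, 6 with limma voom and 4 without the 2 libraries (2 by edgeR). In melanoma plus ICI against ICI it was 1 with the meningeal score or both covariates (7 by edgeR). There it was 8 with DESeq2, with limma voom or without the 2 libraries that lay apart. In the interaction it was 2 with the meningeal score or both covariates (4 by edgeR), 5 with DESeq2 or without the 2 libraries, and 6 with limma voom. With one library left out it ran from 1 to 4 in ICI against control, from 0 to 2 in melanoma against control and from 1 to 4 in melanoma plus ICI against melanoma. In melanoma plus ICI against control it ran from 0 to 2. Genes past the threshold then ran from 0 to 11 in the interaction, from 0 to 12 in melanoma plus ICI against melanoma, and from 0 to 3 for melanoma against control, the highest each time without melanoma plus ICI replicate 3.

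Of 60 single-gene log2 fold changes (10 genes in 6 comparisons), 23 turned sign under at least 1 alternative. None of the 23 had passed the threshold. Among those given in the report, signs turned for H2-Aa in melanoma plus ICI against ICI (-5.93e-05) and in the interaction (-0.092) with both covariates, and for Ms4a7 in melanoma plus ICI against ICI (-0.38 with the meningeal score, -0.46 with both). For the slope on Ttr, 543 genes passed by edgeR, 2519 with the other choroid plexus genes in place of Ttr, 170 without the 2 libraries that lay apart and 231 to 2198 with one library left out. Members passing numbered 3 with those choroid plexus genes, 4 with the meningeal score, 1 with no group term, 1 with limma voom and 0 to 2 with one library left out, and 1 had an unadjusted p under 0.05 without the 2 libraries that lay apart. The slope of Cd163 turned to -0.027 without those 2 libraries and ran from -0.0077 to 0.063 with one library left out, and that of F13a1 ran from -0.040 to 0.024. For the slope on the meningeal score, 241 genes passed, 136 without the 2 libraries, 720 with no group term and 58 to 534 with one library left out, the lowest without control replicate 1. The r of Pf4 with Ttr was 0.57 in the 14 libraries of high Ttr, that of F13a1 -0.032 with group means subtracted, and 3 members passed the correlation with the meningeal score without the 2 farthest libraries and 5 with group means subtracted.

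Same-numbered libraries of different groups had a mean r of 0.032 over 30 pairs (-0.350 to 0.528), against -0.0068 for different numbers (-0.523 to 0.686). With ranges this wide, the means cannot show whether the numbers pair the mice. With a replicate block, 0 members passed in the 6 comparisons, and the numbers at an unadjusted p under 0.05 were 4 in ICI against control and 2 in melanoma against control. For melanoma plus ICI, the number was 3 against melanoma, 8 against ICI and 0 against control, and it was 5 in the interaction. With the replicate block 99 genes passed the slope on Ttr with 0 members at an unadjusted p under 0.05, the slope of F13a1 was 0.024, and 561 genes and 6 members passed the slope on the meningeal score. Low counts limit Pf4 and Ms4a7 most.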
